A study of Homo sapiens with 6 samples.

Results

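The genes examined here are the matrix metalloproteinases (MMPs), the ADAM and ADAMTS metalloproteases and the tissue inhibitors of metalloproteinases (TIMPs) of RL95-2, a human endometrial carcinoma cell line in long use. Members were taken by name, as every gene in the count tables whose symbol is MMP, ADAM or ADAMTS followed by digits only, or TIMP followed by 1 digit. This gave 67 of 23228 genes, of which 22 are MMP, 22 ADAM, 19 ADAMTS and 4 TIMP genes. The name rule leaves out relatives such as the ADAMTSL genes, which are described with the partner genes. RNA-seq was carried out on 3 control libraries and 3 ADP-CM libraries. All cells were kept without serum for 24 h. Control cells received RPMI and plain DMEM in equal parts, and ADP-CM cells received RPMI and adipocyte-conditioned medium (ADP-CM) in equal parts. ADP-CM is DMEM in which mature adipocytes from human adipose tissue had been cultured, passed through a filter before use, so the treated wells held no adipocytes. A single cell line stands for the tumor in this design, and the labels do not say whether the 3 libraries of a group came from separate cultures, so p-values measure the spread between these libraries, which may be technical.

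The libraries held 16262614 to 18363033 reads assigned to genes. Reads on no gene made up 10.2% to 10.3% of the counted reads in control and 11.5% to 11.6% in ADP-CM libraries. Of the epithelial markers, 8 of 8 passed the filter on low counts, with summed levels of 5510 to 5663 CPM (read counts scaled to library size) in control and 4789 to 4877 CPM in ADP-CM libraries. In that list 5 genes fell, among them KRT19 and CDH1, and MUC1 rose. None of 10 adipocyte markers passed the filter, and ADIPOQ, LEP and CIDEA were at 0 reads in all 6 libraries. FABP4 had 4 to 11 reads and PLIN4 4 to 8 reads per library, LPL had at most 6, and the other 4 had at most 3.

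MMPs, ADAMs and ADAMTSs are zinc-dependent proteases made as inactive precursors, whose prodomain is removed outside the cell or on the secretory route, often by furin. MMPs cleave extracellular matrix proteins, ADAMs are membrane proteins of which the active ones release the outer parts of growth factors and receptors, and ADAMTSs are secreted and process matrix proteins such as procollagens and large proteoglycans. TIMPs bind the active site of these enzymes and block it. In the endometrium, MMPs are known for the breakdown of tissue at menstruation, and progesterone is known to restrain them.

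The feature that the proteases share is the zinc-binding site of the catalytic domain, a run of 11 residues in which 3 histidines hold the zinc ion, a glutamate acts in catalysis and a glycine allows a turn of the chain. The coding sequence of this site is shown for expressed enzymes of each family, read from the GRCh37 genome along the main annotated transcript in the 5′ to 3′ direction of the gene. Capitals mark the codons of the histidines, the glutamate and the glycine.
MMP14: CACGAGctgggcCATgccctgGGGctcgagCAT
MMP15: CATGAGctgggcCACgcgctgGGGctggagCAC
MMP28: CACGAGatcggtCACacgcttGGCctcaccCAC
ADAM10: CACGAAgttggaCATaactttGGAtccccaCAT
ADAM15: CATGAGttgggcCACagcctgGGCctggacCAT
ADAM17: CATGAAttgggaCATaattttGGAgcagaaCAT
ADAMTS7: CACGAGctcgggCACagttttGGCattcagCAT
ADAMTS13: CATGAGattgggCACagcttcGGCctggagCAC
ADAMTS1: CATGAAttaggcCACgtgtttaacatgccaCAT
ADAMTS9: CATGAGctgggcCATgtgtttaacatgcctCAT
The sites of MMP14, MMP15, ADAM15 and ADAM17 lie within 1 exon each, at chr14:23312492-23312524 on the plus strand, chr16:58074467-58074499 on the plus strand, chr1:155029471-155029503 on the plus strand and chr2:9650207-9650239 on the minus strand. The annotated frame of MMP28 is interrupted on this build, so its site, at chr17:34097186-34097218 on the minus strand, was read in another frame. In the other 5 genes the site is split between neighbouring exons, so that its first and last bases enclose an intron: chr15:58920080-58925424 in ADAM10, chr15:79080701-79082047 in ADAMTS7, chr21:28213462-28214186 in ADAMTS1 and chr3:64636824-64640045 in ADAMTS9, all on the minus strand, and chr9:136291449-136293769 in ADAMTS13, on the plus strand. In ADAMTS1 and ADAMTS9 the codon at the place of the glycine is in lower case, since it encodes another residue. Over the 61 protease members with such a transcript, 48 had the whole site, 5 had it without the glycine and 8 did not have it. Among the 21 of them that passed the filter on low counts these numbers were 16, 3 and 2. The 3 were ADAMTS1, ADAMTS9 and ADAMTS15, and the 2 without the site were ADAM11 and ADAM22, members known as adhesion proteins of the nervous system that lack protease activity.

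Most of these genes had few or no reads. Of the 67 members, 23 were at 0 reads in all 6 libraries, and a further 8 had at most 3 reads in any library. A count of 0 in 1 library allows up to 3 reads, which is 0.163 to 0.184 CPM at these depths, so lower expression could be missed in that library. The limit over all 6 libraries together is lower, and such limits cover counting error only. More than 3 reads in some libraries only were found for 4 members, and 32 had more than 3 reads in every library of at least 1 group. Of these 32, 25 passed edgeR's filterByExpr and were tested, and 7 did not pass. The tested genes were 5 of 22 MMPs, 10 of 22 ADAMs, 7 of 19 ADAMTSs and 3 of 4 TIMPs.

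**Figure D1:**
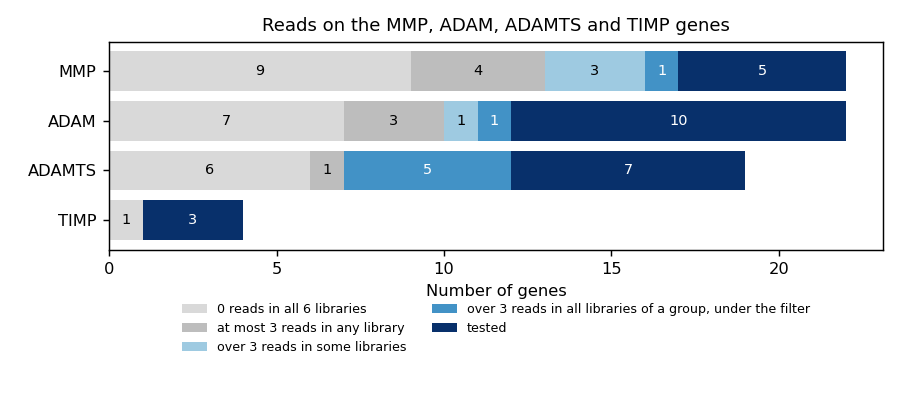
Number of genes (x axis) of each family (y axis) by their reads in the 6 libraries, from 0 reads in all libraries (light grey) to tested (dark blue). Of the 22 MMPs, 9 had no read and 5 were tested, whereas 3 of the 4 TIMPs were tested.

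The soluble enzymes known for cleaving interstitial and basement membrane collagens were at or near the limit of detection. MMP2, a gelatinase, was at 0 in all 6 libraries. MMP9, the other gelatinase, had 3, 6 and 6 reads in control replicates 1, 2 and 3 and 8, 1 and 3 reads in ADP-CM replicates 1, 2 and 3, so the groups overlapped. Of the collagenases, MMP8 was at 0, MMP1 had at most 2 reads and MMP13 at most 4 reads in any library. The stromelysins MMP3 and MMP10 had 0 and at most 2 reads, and the matrilysins MMP7 and MMP26 were at 0. On chromosome 11, 9 MMP genes lie side by side between 102391239 and 102826461 (GRCh37), namely MMP7, MMP20, MMP27, MMP8, MMP10, MMP1, MMP3, MMP12 and MMP13. None of these 9 had more than 4 reads in any library. Of the 6 membrane-type MMPs, MMP14, MMP15 and MMP16 had enough reads to be tested. MMP17 had 5 to 10 reads per library, and MMP24 and MMP25 had at most 3 and 2 reads in any library.

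Some neighbours elsewhere in the genome differed in their reads. On chromosome 8, ADAM9 lies beside ADAM32, ADAM18 and ADAM2 and had up to 21535 reads, while the other 3 genes had at most 5. ADAM28 and ADAM7, neighbours elsewhere on that chromosome, both had at most 2 reads. ADAM2, ADAM18, ADAM29 and ADAM30 were at 0 in all libraries. On chromosome 21, ADAMTS1 had 2821 to 3325 reads and its neighbour ADAMTS5, an aggrecan-cleaving enzyme, had 4 to 11. The 7 members with more than 3 reads in every library of a group that missed the filter were ADAM19, ADAMTS2, ADAMTS5, ADAMTS6, ADAMTS14, ADAMTS19 and MMP17. The highest of their counts was 14 reads, for ADAMTS2 in control replicate 2.

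All 67 members together took 0.300% to 0.304% of the reads on genes in each library. ADAM9, a membrane protease of broad expression, alone made up 37.1% to 38.7% of these reads. Levels between genes were compared as CPM per kilobase of annotated exons, since longer transcripts give more reads. On this scale the leading levels in control were 96.3 ± 1.03 for TIMP1, 65.8 ± 0.297 for ADAM9, 65.0 ± 1.17 for MMP14, 56.8 ± 0.423 for TIMP2 and 32.9 ± 0.664 for TIMP3 (SD, n = 3 each). With this length, ADAM9 and MMP14 did not differ beyond their spread between libraries. ADAMTS1 followed with 23.9 ± 0.398, ADAM15 with 22.2 ± 0.496 and ADAM10 with 21.4 ± 0.291 CPM per kilobase, and MMP15 with 11.7 ± 0.424 (SD, n = 3 each). The order depends on the length used. With the longest transcript in place of all exons, ADAM9 led with 164.5 CPM per kilobase and TIMP1 came next with 127.1. MMP14 was then at 78.0, well below ADAM9.

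**Figure D2:**
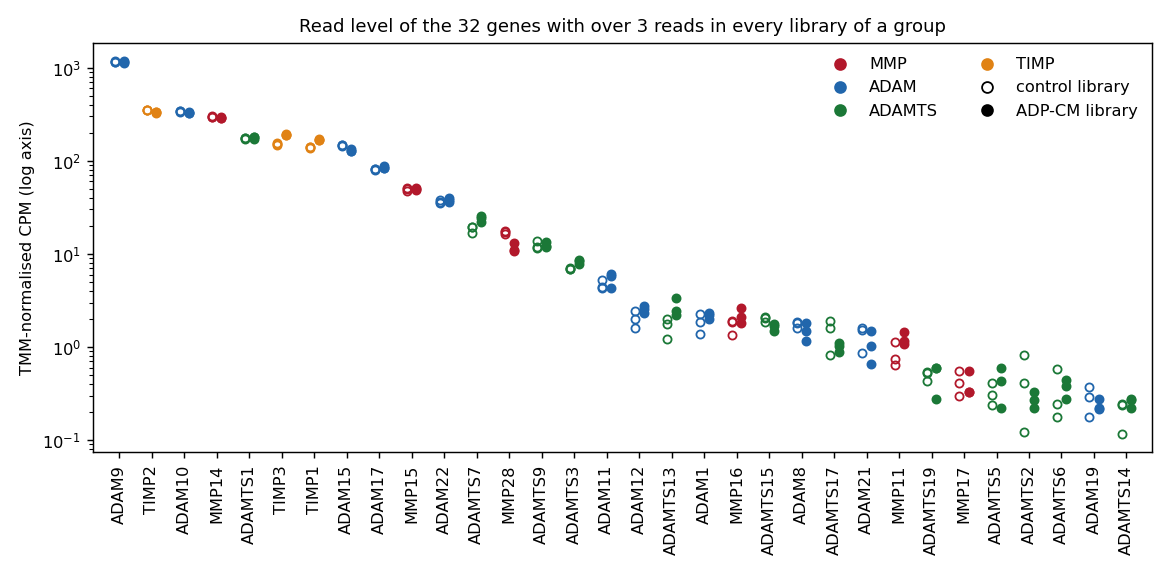
TMM-normalised CPM on a log axis (y axis) of the 32 genes with more than 3 reads in every library of a group (x axis, ordered by mean level), with open circles for the 3 control and filled circles for the 3 ADP-CM libraries. CPM is not divided by length here, so the order differs from that per kilobase. ADAM9, at 1165 CPM in control, stands highest, and the libraries of a group spread most among the genes of few reads at the right.

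Summed over all members on the scale of CPM per kilobase, control libraries averaged 418.2 ± 1.72 and ADP-CM libraries 437.8 ± 2.27 (SD, n = 3 each). The TIMP sum was 186.0 ± 0.704 in control and 211.3 ± 1.48 in ADP-CM libraries, the MMP sum 82.7 ± 0.830 and 79.5 ± 1.31, the ADAM sum 120.1 ± 0.711 and 116.1 ± 1.19, and the ADAMTS sum 29.5 ± 0.349 and 30.9 ± 0.746. No test was made of these sums. On this scale MMP14 makes up most of the MMP sum and TIMP1 more of the TIMP sum than TIMP2 or TIMP3. Like the order of the genes, these sums depend on the length used. Not divided by length, all members summed to 2999 to 3032 CPM in control and 3003 to 3044 CPM in ADP-CM libraries. The TIMPs then summed to 639.4 to 645 CPM in control and 683.9 to 699.7 CPM in ADP-CM libraries. The ADAMs summed to 1774 to 1796 CPM in control and 1712 to 1771 CPM in ADP-CM libraries.

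The comparison of the groups asks which of these genes change in endometrial carcinoma cells exposed to adipocyte-conditioned medium. The control DMEM was plain, so what adipocytes released into the medium and what they took from it cannot be told apart. ADP-CM raised TIMP1, TIMP3, ADAMTS7 and ADAMTS13 and lowered MMP28, ADAM15 and TIMP2, at an adjusted p under 0.01 in edgeR's quasi-likelihood test with adjustment over all 12663 tested genes. On GRCh37 the raised genes lie at chrX:47441807-47446188, chr22:33197691-33259028, chr15:79051548-79103806 and chr9:136279478-136324524, and the lowered ones at chr17:34083268-34122711, chr1:155023042-155035251 and chr17:76849059-76921469. The changes were small, and ADAMTS13 was the 1 member whose fold change passed 1.5. Of the 25 tested members 4 were raised (16%) and 3 lowered (12%), while 13.5% of all tested genes were raised and 13.0% lowered, so the members were called about as often as genes in general. The share over a fold change of 1.5 was 4% for members, which is 1 gene, and 2.27% for all tested genes. In 11 members (44%) all ADP-CM libraries lay on the same side of all control libraries, and in all tested genes this share was 45.5%. The median log2 fold change was 0.03 over the tested members and -0.0023 over all genes, and its median size was 0.23 and 0.11. Members with few reads, whose estimates are less precise, hold several of the larger values. Since 42 members were not tested, these shares describe the 25 with enough reads. In bulk RNA, a change in the number of cells of a kind and a change in RNA per cell cannot be told apart.

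**Figure D3:**
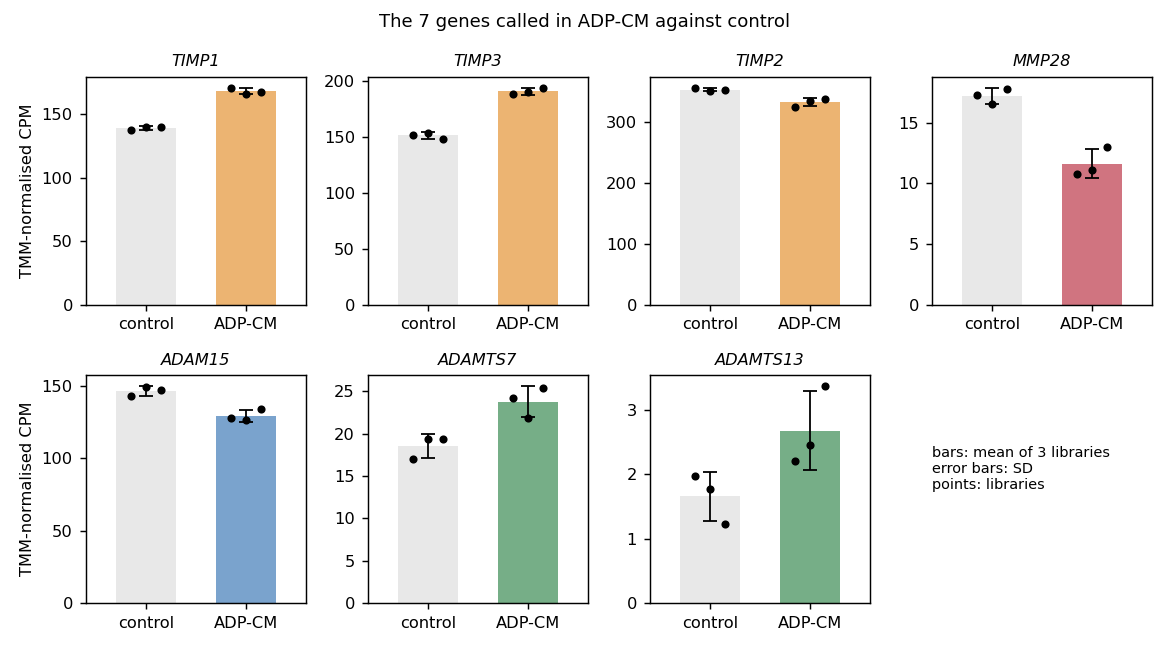
TMM-normalised CPM (y axis, from 0 in each panel) of the 7 called genes in control and ADP-CM, with bars for the mean, error bars for the SD and points for the 3 libraries of each group. In each panel the 3 points of one group lie wholly above those of the other, by the widest relative margin in MMP28 and by a narrow one in TIMP2 and ADAM15.

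TIMP1, a secreted inhibitor of most MMPs that also has growth-promoting activity in some cells, was at 137.5, 140.0 and 140.2 CPM in control replicates 1 to 3 and at 170.7, 165.8 and 167.9 CPM in ADP-CM replicates 1 to 3. The groups were well apart, with 2231 to 2397 reads per control and 3040 to 3091 per ADP-CM library. The log2 fold change was 0.27 with a standard error of 0.029 and an edgeR adjusted p of 4.37e-12. TIMP3, the inhibitor that is bound to the matrix and that also blocks ADAM17, was at 152.0, 153.8 and 147.9 CPM in control and at 188.2, 190.2 and 193.8 CPM in ADP-CM libraries. All ADP-CM libraries were above all control libraries, and the log2 fold change was 0.33 with a standard error of 0.028 and an edgeR adjusted p of 6.67e-16. Both genes were called in 13 of 13 alternative analyses. These include a looser limit, an adjusted p under 0.05 on the same fit, which keeps every called gene by definition. TIMP2, which also takes part in the activation of MMP2 by MMP14, moved the other way, from 355.5, 350.6 and 351.3 CPM in control to 324.9, 333.6 and 338.1 CPM in ADP-CM libraries. Its log2 fold change was only -0.09, with a standard error of 0.022 and an edgeR adjusted p of 0.00169, and its adjusted p was 0.0127 without control replicate 1 and 0.0391 without ADP-CM replicate 1. In the annotation 3.61% of the exonic bases of TIMP2 overlap another gene on the same strand and 5.91% one on the other strand. TIMP4, the inhibitor known from the heart, was at 0 in all 6 libraries.

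Stromal cells express TIMP1 and TIMP3 strongly, so their markers are given beside these values. The summed level of the 8 stromal markers was 61.5 to 68.4 CPM in control and 78.3 to 79.2 CPM in ADP-CM libraries. This sum is almost all COL1A1, which rose from 62.3 ± 3.73 to 76.7 ± 0.839 CPM (SD, n = 3 each). Of the other 7, THY1 was at 0, DCN, PDGFRA and COL1A2 had 3 reads or fewer in every library, and LUM and PDGFRB had more than 3 reads in some libraries only. COL3A1 passed the filter, at 1.67 ± 0.434 CPM in control and 1.66 ± 0.809 CPM in ADP-CM libraries (SD, n = 3 each), and was not called. Leukocyte markers summed to 8.36 to 9.74 CPM in control and 10.9 to 13.3 CPM in ADP-CM libraries, mostly CD68, which was raised, while PTPRC had at most 3 reads. Of the endothelial markers only CDH5 was tested, at 63.5 ± 2.94 and 58.6 ± 3.67 CPM (SD, n = 3 each), and KDR was at 0. The part of the epithelial, COL1A1 and CD68 shifts in the results was not tested.

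The 250 bases upstream of the start of TIMP1 and TIMP3 are shown because these inhibitors rose together. They are RefSeq sequences on GRCh38.p14 and lie at chrX:47582186-47582435 and chr22:32801455-32801704, both on the plus strand. Capitals mark the match found.
TIMP1: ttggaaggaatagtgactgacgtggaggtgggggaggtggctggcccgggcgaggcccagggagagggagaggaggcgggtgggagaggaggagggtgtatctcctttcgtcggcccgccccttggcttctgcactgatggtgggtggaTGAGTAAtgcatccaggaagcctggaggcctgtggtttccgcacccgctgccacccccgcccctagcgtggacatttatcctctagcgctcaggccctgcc
TIMP3: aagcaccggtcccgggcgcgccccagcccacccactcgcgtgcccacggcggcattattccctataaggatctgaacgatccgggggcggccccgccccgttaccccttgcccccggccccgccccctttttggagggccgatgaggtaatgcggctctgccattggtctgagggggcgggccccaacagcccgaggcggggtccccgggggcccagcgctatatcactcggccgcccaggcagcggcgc
The motifs searched were on both strands of these windows, the AP-1 motif TGANTCA, its variant TGAGTAA and the STAT motif TTCNNNGAA, none of which overlaps another. TIMP1 had 1 match, to TGAGTAA at base -101, and TIMP3 had none. The shares over all genes were counted in a longer window, which also takes in bases past the start. Over the 27305 genes with that window, TGANTCA was in 9.37%, TGAGTAA in 3.16% and TTCNNNGAA in 9.38%. The longer window was matched for 38 of the 67 members, of which 4 held TGANTCA, 1 TGAGTAA and 0 TTCNNNGAA. The 4 were ADAMTS12, MMP7, MMP10 and MMP20, all with at most 3 reads in any library. A match is a stretch of letters and says nothing of binding.

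Of the tested MMPs, only MMP28 was called. MMP28 or epilysin, a secreted enzyme known from keratinocytes and the testis, had 281, 279 and 305 reads in control and 195, 204 and 240 reads in ADP-CM replicates 1 to 3. In CPM these were 17.3, 16.5 and 17.8 in control and 10.8, 11.1 and 13.0 in ADP-CM, so every ADP-CM library was below every control library. The log2 fold change was -0.56 with a standard error of 0.082 and an edgeR adjusted p of 5.90e-08, a fall of 1.48-fold that was called in 13 of 13 alternatives. MMP14, the membrane-bound collagenase also called MT1-MMP, averaged 300.4 ± 5.43 CPM in control and 292.9 ± 4.32 CPM in treated libraries (SD, n = 3 each), with overlapping groups and an edgeR adjusted p of 0.233. MMP15, another membrane-type enzyme, was at 49.5 ± 1.79 and 49.7 ± 1.5 CPM (SD, n = 3 each) with an edgeR adjusted p of 0.954. MMP11 or stromelysin-3 had 11 to 19 reads in control and 20 to 26 in ADP-CM libraries. MMP16 had 23 to 31 and 33 to 48 reads, and in CPM, which allows for depth, the groups of both genes overlapped. At these counts neither passed the test, with log2 fold changes of 0.54 and 0.37 and edgeR adjusted p of 0.152 and 0.192.

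Of the 10 tested ADAMs, ADAM15 was the 1 called. ADAM15 or metargidin, a membrane protease that also binds integrins, was at 142.7, 149.0 and 147.3 CPM in control and at 127.7, 126.2 and 133.8 CPM in ADP-CM replicates 1 to 3. No ADP-CM library reached the lowest control library. The log2 fold change was -0.18 with a standard error of 0.030 and an edgeR adjusted p of 2.14e-06, and the call was made in 13 of 13 alternatives. ADAM10 and ADAM17, the main sheddases of growth factors and cell surface receptors, were not called. ADAM10 was at 345.6, 344.7 and 337.1 CPM in control and 329.1, 333.4 and 325.3 CPM in ADP-CM libraries. These groups did not overlap, but the log2 fold change was -0.06 with a standard error of 0.022 and an edgeR adjusted p of 0.0398, which is past a limit of 0.05 but not of 0.01. ADAM17 was at 80.1 to 82.4 CPM in control and 83.2 to 87.3 CPM in ADP-CM libraries, and gave 0.06 on the log2 scale and an edgeR adjusted p of 0.197. In ADAM17, 11.7% of exonic bases overlap a gene on the other strand, and the strand setting of the counting was not stated in the sources used here. ADAM9 averaged 1165 ± 5.26 CPM in control and 1146 ± 29.0 CPM in treated libraries (SD, n = 3 each), with an edgeR adjusted p of 0.314. ADAM22 was at 36.5 ± 1.40 and 37.9 ± 1.66 CPM (SD, n = 3 each), with an edgeR adjusted p of 0.434.

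The other 5 tested ADAMs were low. ADAM8, ADAM11, ADAM12, ADAM21 and ADAM1 had between 12 and 113 reads per library, their groups overlapped, and edgeR adjusted p ran from 0.168 for ADAM12 to 0.480 for ADAM8. ADAM1 matched the annotation only through a RefSeq synonym as ADAM1A, a pseudogene whose exons lie within MAPKAPK5 on the same strand, so its reads are uncertain. ADAM20 and ADAM21 are close paralogs, and reads that fit both were not counted.

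ADAMTS7 and ADAMTS13 were the ADAMTS genes called. ADAMTS7, an enzyme that cleaves cartilage oligomeric matrix protein, had 275, 326 and 331 reads in control and 438, 400 and 466 reads in ADP-CM replicates 1 to 3. In CPM it was at 16.9, 19.3 and 19.4 in control and 24.2, 21.8 and 25.3 in ADP-CM, without overlap. The log2 fold change was 0.36 with a standard error of 0.068 and an edgeR adjusted p of 2.05e-05, and the gene was called in 13 of 13 alternatives. Pseudogene copies of ADAMTS7 are annotated, and reads shared with them were not counted. ADAMTS13, the protease of von Willebrand factor, had 32, 30 and 21 reads in control and 40, 45 and 62 reads in ADP-CM libraries. In CPM these were 1.97, 1.78 and 1.23 against 2.21, 2.45 and 3.37, so the groups did not overlap. Its log2 fold change of 0.69, a 1.62-fold rise, had a standard error of 0.22 and an edgeR adjusted p of 0.00822. The call was lost with DESeq2 (adjusted p = 0.0831) and, in edgeR, without control replicate 2 (0.0178), control replicate 3 (0.0921), ADP-CM replicate 2 (0.0114) or ADP-CM replicate 3 (0.106), over which the log2 fold change ran from 0.49 to 0.75.

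ADAMTS1, a proteoglycan-cleaving enzyme and the leading ADAMTS in these cells, averaged 174.4 ± 2.91 CPM in control and 178.2 ± 4.54 CPM in treated libraries (SD, n = 3 each), with overlapping groups and an edgeR adjusted p of 0.409. ADAMTS9, of the same group, was at 12.4 ± 1.23 and 12.4 ± 0.760 CPM (SD, n = 3 each). ADAMTS3, a procollagen N-propeptidase, was at 6.93 to 7.09 CPM in control and 7.74 to 8.59 CPM in ADP-CM libraries. These groups did not overlap, but its log2 fold change of 0.23 had a standard error of 0.11 and an edgeR adjusted p of 0.0926. ADAMTS15 and ADAMTS17 had 14 to 36 reads per library and edgeR adjusted p of 0.341 and 0.152. Of the 7 ADAMTSs known as proteoglycanases, 3 were at 0, namely ADAMTS4, ADAMTS8 and ADAMTS20. Their large substrates were near the limit of detection as well, with ACAN and BCAN at 0 and VCAN and NCAN at 3 reads or fewer in every library.

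**Figure D4:**
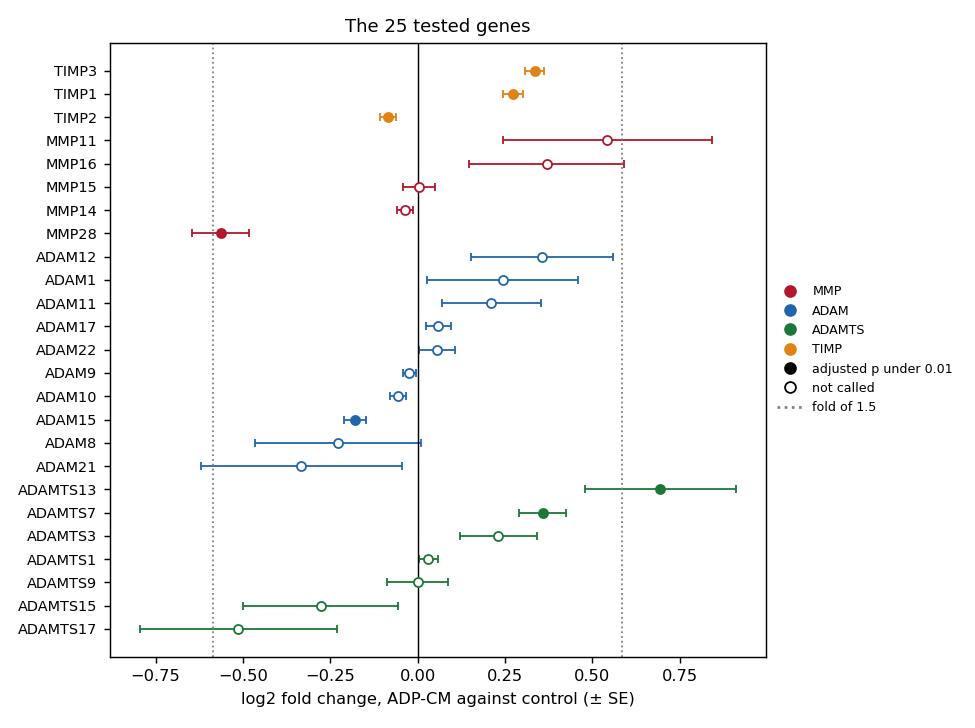
Log2 fold change (x axis) of the 25 tested genes (y axis, by family) in ADP-CM against control, with bars for the standard error, filled points for an adjusted p under 0.01 and dotted lines at a fold of 1.5. The called TIMP genes have the shortest bars of the called genes. ADAMTS13 lies past the upper line, and the widest bars belong to genes of few reads such as MMP11.

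Partner genes that activate, carry or block these enzymes were taken from 4 lists. Of their 32 genes 23 were tested, and 6 were raised and 4 lowered, where 13.5% and 13.0% of all tested genes were. Among the activating proteases, FURIN, the convertase that removes the prodomain of many members, rose from 56.5, 59.3 and 56.3 CPM in control to 70.0, 68.8 and 73.0 CPM in ADP-CM libraries, with no overlap. Its log2 fold change was 0.30 with a standard error of 0.040 and an edgeR adjusted p of 8.84e-09. PCSK6, a related convertase, was lowered from 52.2 ± 1.85 to 47.0 ± 2.61 CPM, and BSG or basigin, known as an inducer of MMPs, from 506.2 ± 3.49 to 457.1 ± 10.7 CPM (SD, n = 3 each). PCSK5 and PCSK7 were not called.

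Among the 9 genes that carry ADAM10 and ADAM17 to the cell surface, 2 rose and 1 fell. RHBDF2, the iRhom that brings ADAM17 through the secretory route, increased from 33.8 ± 0.679 CPM to 40.8 ± 2.66 CPM (SD, n = 3 each) at an edgeR adjusted p of 2.88e-05. Its relative RHBDF1 was at 42.5 ± 0.314 and 39.6 ± 2.54 CPM (SD, n = 3 each), with an edgeR adjusted p of 0.0964. TSPAN14, a tetraspanin partner of ADAM10, rose from 107.1 ± 1.37 to 116.9 ± 3.71 CPM, and TSPAN33, another of them, fell from 16.9 ± 0.724 to 13.5 ± 0.190 CPM (SD, n = 3 each). TSPAN15, the most studied of these partners, was at 39.0 ± 0.930 and 38.1 ± 1.22 CPM (SD, n = 3 each), with an edgeR adjusted p of 0.660.

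Among inhibitors other than TIMPs, SPOCK1 or testican-1, a proteoglycan known to interfere with membrane-type MMP activation, was the 1 partner over a fold change of 1.5. It had 1.91, 2.07 and 2.69 CPM in control and 4.58, 4.96 and 4.57 CPM in ADP-CM libraries, with no overlap. The log2 fold change was 1.07 with a standard error of 0.17 and an edgeR adjusted p of 4.40e-07. RECK, a membrane-bound MMP inhibitor, was at 10.2 ± 0.637 and 10.7 ± 0.762 CPM (SD, n = 3 each), with an edgeR adjusted p of 0.615. TFPI2, a secreted serine protease inhibitor, fell from 488.4 ± 9.16 to 447.0 ± 8.79 CPM, and LRP1, the endocytic receptor that clears several of these enzymes and TIMPs, rose from 24.6 ± 1.30 to 28.5 ± 0.806 CPM (SD, n = 3 each). Of the relatives, ADAMTSL4 rose from 27.1 ± 0.729 to 32.9 ± 1.94 CPM (SD, n = 3 each), and ADAMTSL5 and THSD4 were not called. DESeq2 did not call LRP1, PCSK6, TSPAN14 or TSPAN33. Leaving out 1 library lost LRP1 without control replicate 3 or ADP-CM replicate 1 or 3, PCSK6 without control replicate 2 or 3 or ADP-CM replicate 1 or 2, and TSPAN14 without control replicate 1 or ADP-CM replicate 1.

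Of 26 proteins known to be shed by ADAM10 or ADAM17, the genes of 21 were tested, of which 3 rose and 6 fell, to be read against the same 13.5% and 13.0%. L1CAM, an adhesion molecule released by ADAM10, was at 356.3, 350.5 and 346.5 CPM in control and 245.3, 240.0 and 244.5 CPM in ADP-CM libraries, which gave -0.53 on the log2 scale (SE 0.023) and an edgeR adjusted p of 5.00e-29. CD44, the hyaluronan receptor, was at 302.2, 308.8 and 301.6 CPM in control and 413.4, 410.6 and 410.1 CPM in ADP-CM libraries, which gave 0.44 on the log2 scale (SE 0.022) and an edgeR adjusted p of 5.86e-26. SDC4, a cell surface proteoglycan, fell from 235.2 ± 2.71 to 173.4 ± 2.12 CPM (SD, n = 3 each). In each of these genes the groups were far apart for the spread within them. AXL and NOTCH2 also rose, and CDH1, CXCL16, SDC1 and MET also fell. CDH1 is in the epithelial marker list as well. None of the 9 called genes passed a fold change of 1.5.

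**Figure D5:**
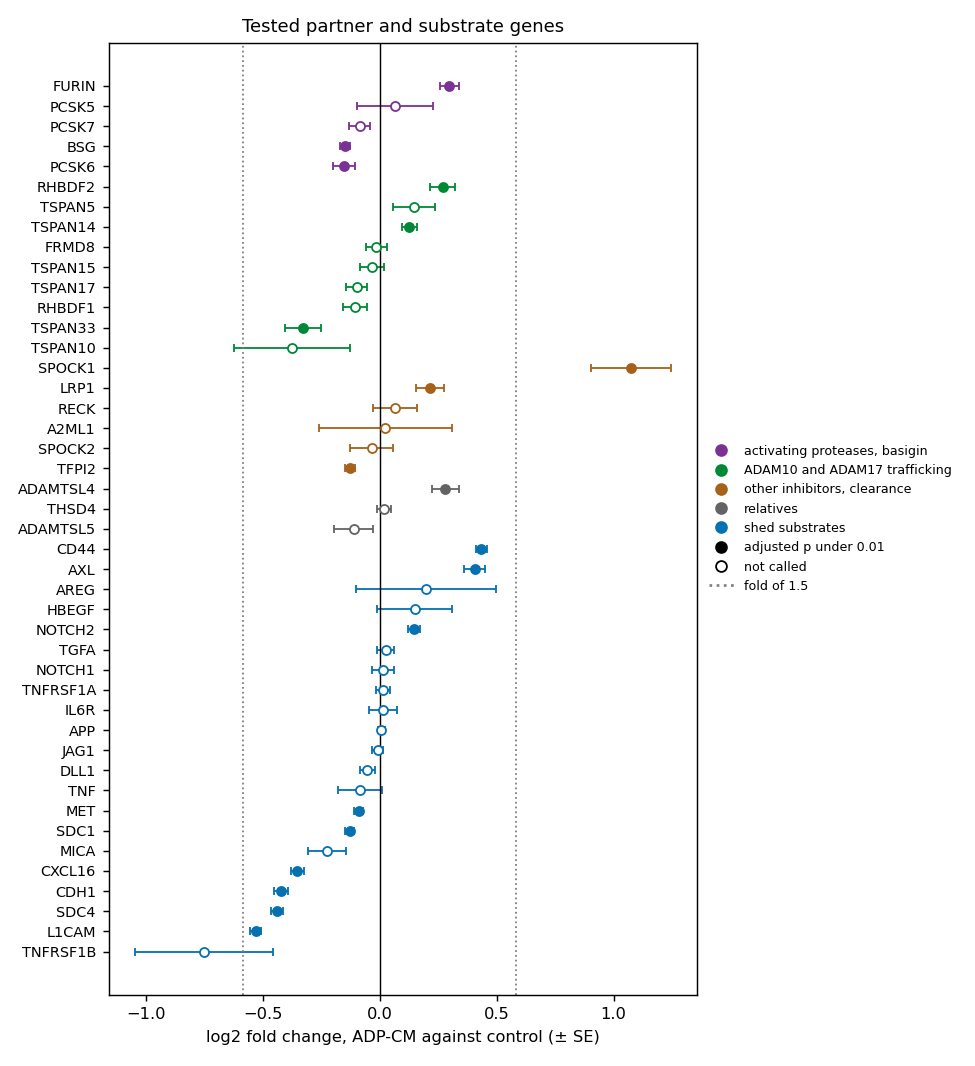
Log2 fold change (x axis) of the tested partner and substrate genes (y axis, colored by list) in ADP-CM against control, with bars for the standard error, filled points for an adjusted p under 0.01 and dotted lines at a fold of 1.5. SPOCK1 is the called gene past a line. L1CAM, SDC4 and CDH1 lead the called falls and CD44 and AXL the called rises of the substrates.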

How the data were processed

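RNA of RL95-2 cells was sequenced as 50 bp single reads from 6 stranded poly(A) libraries, 3 control and 3 ADP-CM, grouped by the submitters' treatment labels. The authors aligned reads to hg19 with TopHat2 and counted them on RefSeq genes with HTSeq, and the deposited values are raw counts per gene. bcl2fastq and SAMtools are also named in the submitters' processing notes, and versions and the strand setting are not given in the sources used here. Reads without a unique alignment, 20.5% to 20.8% of those listed, were left out of the counts, which lowers genes with near-identical copies. The lines that name no gene, including reads on no gene (10.2% to 11.6%) and ambiguous reads (0.709% to 0.721%), entered neither library sizes nor tests.

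Counts were compared in R 4.3.3 with edgeR 4.0.16, by TMM, filterByExpr (12663 genes kept) and its quasi-likelihood test, adjusted by the Benjamini-Hochberg method, and called at an adjusted p under 0.01, with a fold change over 1.5 as a further limit. CPM values are TMM-normalized. The common biological coefficient of variation was 1.67%, and depth limits genes with few reads. Replicates of a group differed by more than sampling noise. Alternatives were DESeq2 1.42.0, its size factors, plain library sizes, no filter, at least 10 reads in every library, the replicate number as a block, an adjusted p under 0.05 and each library left out in turn. Calls were also tested on simulated data. The changes planted there were larger than that of any called member, so that test does not show how well changes of this size are called. Positions and exon lengths are from GENCODE on GRCh37, and promoter windows from RefSeq on GRCh38.p14.

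The members, the partner, substrate and marker lists and the tests were chosen with earlier results of these data known. The rule named every called member, a fixed set of well-known members and the 5 highest others not called, members under the filter with more than 3 reads in a group, and of the lists those called over a fold change of 1.5, a fixed set and up to 3 by smallest p. Other genes, such as MUC1, MMP11 and AXL, were named after their values were seen.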

Additional observations from a re-analysis of the deposited data

Results flagged for a closer look

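Reads on no annotated gene, which no comparison uses, made up at least 11.5% of counted reads in every ADP-CM library, above the 10.2% to 10.3% of the control libraries. They name no gene, so no member is counted in them.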

How the results depend on the processing

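ADAM15, ADAMTS7, MMP28, TIMP1 and TIMP3 were called in 13 of 13 alternatives, TIMP2 in 11 and ADAMTS13 in 8. Each of these numbers includes the limit of an adjusted p under 0.05. Applied to the same fit, that limit keeps every called member by definition and could not lose a call. Members raised numbered 3 or 4 and members lowered 2 to 4 in all alternatives, and leaving out each library in turn gave 3 to 4 raised and 2 to 3 lowered. Members called over a fold change of 1.5 numbered 0 with DESeq2 and 0 to 1 with each library left out in turn. At an unadjusted p under 0.05 that number was 1 by either tool, ADAMTS13. Without control replicate 2 or ADP-CM replicate 3 the 1 gene was MMP28 in place of ADAMTS13. Without control replicate 3 or ADP-CM replicate 2 there was 0. Partner genes lowered numbered 2 with DESeq2, against 4. The cause of these differences was not tested.

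The log2 fold change changed sign for MMP15, to -0.022 without control replicate 1 and -0.017 without ADP-CM replicate 1 (range with a library left out -0.022 to 0.029), and for ADAMTS9, to 0.0025 with plain library sizes, 0.00093 with no filter, and 0.085, 0.012 and 0.034 without control replicate 3, ADP-CM replicate 2 and ADP-CM replicate 3 (range with a library left out -0.051 to 0.085). Neither gene was called in any of these.

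Same-numbered libraries of the groups deviated together only weakly (correlations of 0.0634, 0.0255 and 0.0918, each the highest for its number). With 3 libraries per group, such values cannot tell whether same-numbered samples were handled together, and the labels give only a number. With the replicate number as a block, 4 members were raised, 3 lowered and 1 over a fold change of 1.5, 6 partner genes were raised and 4 lowered, and 3 substrate genes were raised and 6 lowered, the same counts as without it.

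More than 10 reads in every library of a group were found for 25 members and at least 1 read for 36, against 32 at more than 3 reads. Depth limits the low genes: 42 members had too few reads for a test.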
